A study of Mus musculus with 10 samples.

Results

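The genes described here encode subunits of the activins and inhibins, follistatin and 2 follistatin-like proteins, and activin receptors with a coreceptor. They were chosen by symbol, and all 10 were found among the 23201 gene rows of the count table. *Inhba* and *Inhbb* encode the beta subunits of activin, and *Inha* the alpha subunit of inhibin. *Fst* encodes follistatin, and *Fstl1* and *Fstl3* encode follistatin-like proteins. *Acvr1b*, *Acvr2a* and *Acvr2b* encode activin receptors, and *Tdgf1* encodes the coreceptor Cripto.

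The cells came from a course in which mouse embryonic fibroblasts (MEFs) of ICR embryos were reprogrammed towards extraembryonic endoderm (XEN)-like cells by the cocktail C6FAE. The cocktail holds CHIR99021 (a GSK3 inhibitor), RepSox (the 6 of the name, an inhibitor of the TGF-beta receptor ALK5), Forskolin (a cAMP agonist), AM580 (a retinoic acid receptor agonist) and EPZ004777 (a Dot1L inhibitor). The study's methods also list valproic acid for the induction, whereas the labels name C6FAE only. The medium also held serum, KnockOut Serum Replacement and basic fibroblast growth factor. Single cells were picked by hand at 10 time points and their polyadenylated RNA was sequenced. The groups are d0 (MEFs on day 0) and the cells of C6FAE-treated cultures on day 1 (d1), 2 (d2), 3 (d3), 4 (d4), 5 (d5), 6 (d6p; the p is not explained), 8 (d8), 12 (d12) and 20 (d20). Cells picked from colonies on days 8 and 12 form the groups d8c and d12c. MEFs are a mixed primary population, and no group other than d0 was left untreated, so time in culture and exposure to C6FAE cannot be told apart. The series has 10 samples, which are batches of cells, but cell names carry only a group and a running number. All cells were therefore read as 1 sample, in which cells are not replicates. No test between groups was made, and differences below are descriptions of these cells.

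Activins are secreted dimers of beta subunits, whereas a beta subunit joined to the alpha subunit gives an inhibin, which opposes activin. Activin binds a type II receptor (the products of *Acvr2a* and *Acvr2b*), which then engages the type I receptor ALK4 (the product of *Acvr1b*), and the signal passes to Smad2 and Smad3. Follistatin holds activin outside the cell and keeps it from its receptors. Fibroblasts are a known source of activin A, the dimer of *Inhba* products. In the early embryo, signals of this type, from Nodal with its coreceptor Cripto, are known for their part in forming endoderm.

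The 250 bases before the start sites of *Inhba* and *Inhbb* are shown because these 2 genes encode the same kind of subunit and differed in opposite directions between d0 and d8. They are RefSeq sequences of the build GRCm38.p6, read 5′ to 3′ on the strand of the gene, and capitals mark each CG. The first covers chr13:16011601-16011850 on the plus strand and the second chr1:119422249-119422498 on the minus strand.
Inhba: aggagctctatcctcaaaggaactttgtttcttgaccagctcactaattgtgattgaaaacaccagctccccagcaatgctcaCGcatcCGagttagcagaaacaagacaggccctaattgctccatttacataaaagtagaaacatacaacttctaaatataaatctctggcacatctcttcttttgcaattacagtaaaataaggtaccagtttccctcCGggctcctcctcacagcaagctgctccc
Inhbb: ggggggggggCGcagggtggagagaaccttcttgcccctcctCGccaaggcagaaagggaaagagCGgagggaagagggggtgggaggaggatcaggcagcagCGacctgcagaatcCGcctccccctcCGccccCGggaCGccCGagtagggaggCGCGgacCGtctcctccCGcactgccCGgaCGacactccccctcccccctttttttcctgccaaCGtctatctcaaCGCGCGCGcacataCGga
The *Inhba* stretch holds 3 CG pairs with a GC content of 43.2%, and 37.8% of the 32851 promoter stretches of this length held at most as many. The *Inhbb* stretch holds 21 CG pairs with a GC content of 68.0%, and 85.2% of stretches held at most as many. The median over all stretches was 6 CG pairs. Of the 10 genes, 9 matched a sequence, all but *Fst*. Neither a cAMP response element (TGACGTCA, 1.55% of all stretches), its core (TGACG, 17.8%, contained in the full element) nor an AP-1 site (TGANTCA, 6.75%) was found on either strand in any of the 9 stretches.

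A cell was kept if it had at least 4000 detected genes, which left 670 of 808 cells, from 20 (d8c) to 86 (d6p) in a group. Levels are given as CPM, the unique molecular identifiers (UMIs) of a gene scaled to 1000000 over all genes of the cell, with spike-in RNAs left out. Median depth lay between 195546 UMIs per cell at d20 and 1055260 at d2, and the spike-in share between 2.50% at d3 and 18.0% at d20. The summed level of 10 fibroblast markers had a median of 3524 CPM at d0 and 10096 CPM at d12, but 45.1 CPM at d20, where *Postn* and *Dcn* had no UMI. The 10 XEN markers had medians of 47.9, 31.0 and 3246 CPM in the same order, and *Sall4*, *Foxa2* and *Amn* had no UMI at d0. Of the d12c cells, 21 were numbered 1 to 24 and had a median of 6304 CPM of fibroblast and 210.4 CPM of XEN markers, whereas the 30 numbered 49 and above had 19.5 and 3296 CPM. No d12c cell between these ranges was kept. If number ranges are libraries, which the labels do not say, library and cell state cannot be told apart in d12c. Its 2 ranges are therefore given separately where d12c is compared with other groups. Orders of groups by mean, shares of cells by group, figures by group and correlations over group means took d12c whole, as a mixture of both. Macrophage, endothelial and muscle markers (5 each) had summed medians of at most 4.80, 3.80 and 3.50 CPM in every group. Single cells stood far above these medians. The highest sums of muscle markers were 28280 CPM at d0, 9374 CPM at d2 and 10869 CPM in d12c cells numbered 1 to 24. Macrophage and endothelial markers reached at most 412 CPM (d8c) and 308 CPM (d12) in a cell. The part of such cells in the results was not tested.

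*Inhba* had its highest level at d12 and was nearly absent at d20. Its gene spans 16103684 to 16119044 on the plus strand of chromosome 13 in the build NCBIM37 (mm9), which all later positions share. At d0 its level in single cells ran from 4.16 to 2755 CPM with a median of 206.7 CPM. The median was 316 CPM at d1, 345 CPM at d2, 183 CPM at d3, 126 CPM at d4 and 131 CPM at d5. It was then lower, at 49.9 CPM at d6p, 38.9 CPM at d8 and 6.68 CPM at d8c. At d12 cells ran from 40.4 to 8093 CPM with a median of 2209 CPM, and 50 of 67 cells had at least 1000 CPM, against 9 of 72 cells at d0 and 1 of 62 at d8. At d20 the median was 0, the highest cell had 6.31 CPM, and 2 UMIs were counted in 38 cells.

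The d12 cells thus stood above those of every other group at the median, and the step down to d20 spanned nearly the whole range. Pooled CPM, the summed UMIs of a gene per summed UMIs of all cells of a group, were 5.23 times as high for *Inhba* at d12 as at d0 (95% Poisson interval 5.16 to 5.31) and 19.0 times as high as at d8 (18.5 to 19.4). They were 11386 times lower at d20 than at d12, with an interval of 3152 to 94021 that rests on the 2 UMIs. These intervals, like all others here, cover counting error only and not the spread between cells or cultures. When cells were thinned to 50000 UMIs, 65 of 66 cells at d12 still had an *Inhba* UMI and 0 of 36 cells at d20, which allows a share of up to 8.33%. Ordered by mean log2(CPM + 1), the groups ran d12, d2, d1, d0, d4, d3, d5, d6p, d8, d12c, d8c and d20. The interquartile ranges of neighbours in that order overlapped in 9 of 11 pairs, the exceptions being d12 with d2 and d8c with d20.

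**Figure D1:**
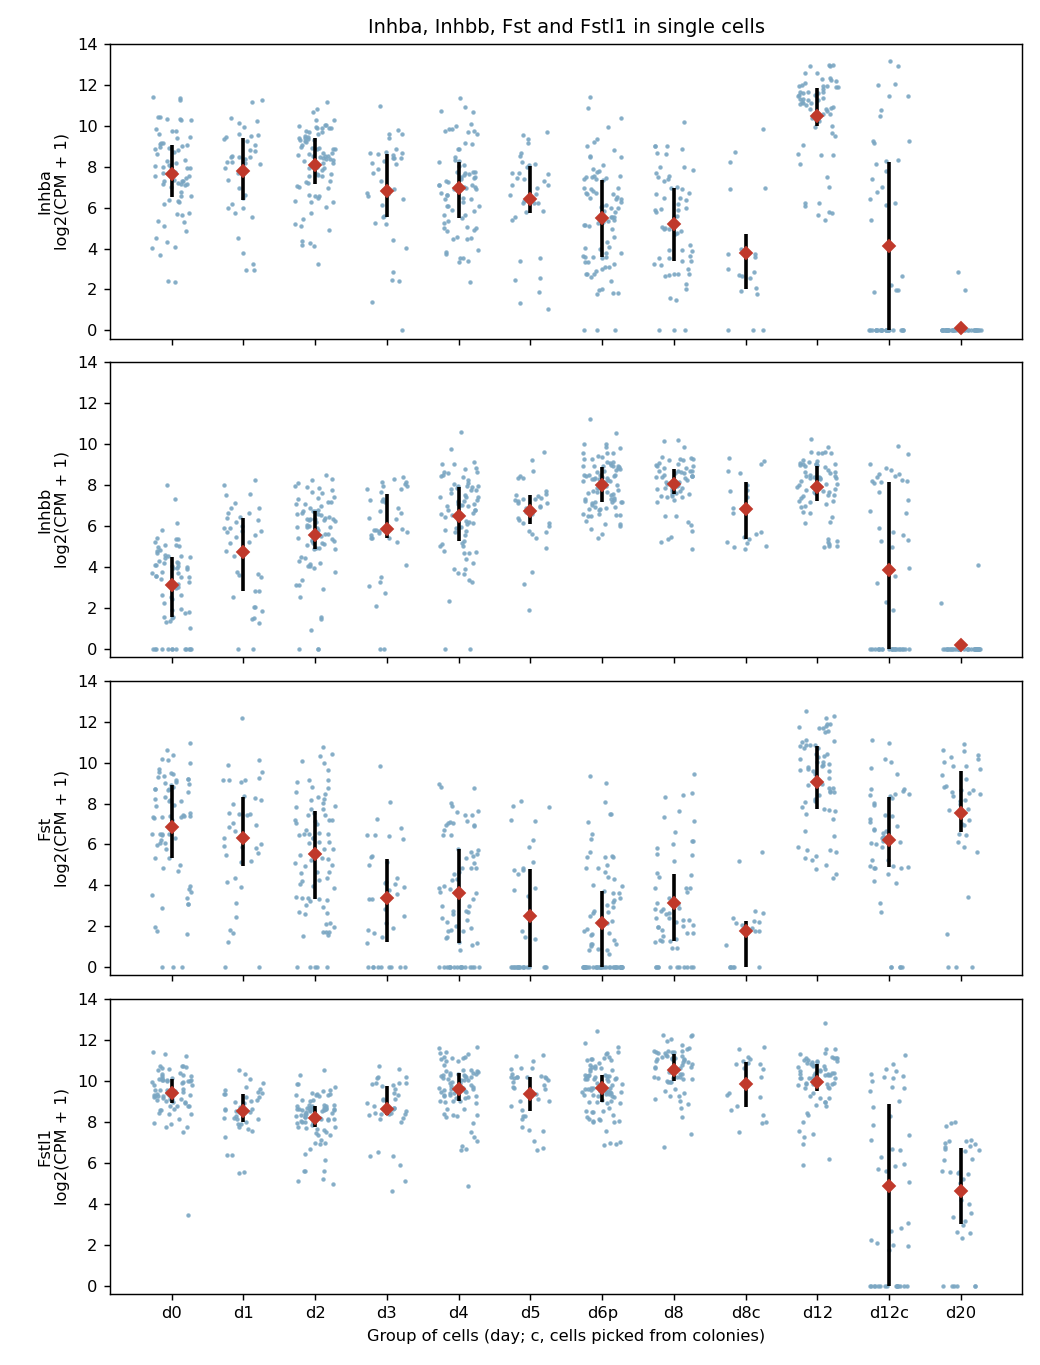
Levels of *Inhba*, *Inhbb*, *Fst* and *Fstl1* in 670 single cells as log2(CPM + 1), by group of cells along the horizontal axis. Each dot is a cell, diamonds are means and bars are interquartile ranges; at d12 the mean *Inhba* level was 10.47 and at d20 it was 0.13, while the mean *Fst* level was 9.06 and 7.54.

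*Inhbb* took another course, with a level that was higher at each day from d0 to d4 and highest from d6p to d12. It lies on chromosome 1 from 121312042 to 121318825 on the minus strand. Its mean was 19.0 CPM at d0, 61.2 CPM at d1, 82.6 CPM at d2, 113 CPM at d3, 180.1 CPM at d4 and 164 CPM at d5. It reached 361 CPM at d6p, 344 CPM at d8 and 333 CPM at d12, with single cells from 28.2 to 2408 CPM in these 3 groups. A UMI of *Inhbb* was present in every kept cell of d5, d6p, d8, d8c and d12.

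Over all cells the level was higher from the first day: the median was 10.8 CPM at d0 and 44.4 CPM at d1, although the cells of both groups overlapped. Pooled CPM were 3.31 times as high at d1 (3.04 to 3.62), 8.60 times at d5 (7.94 to 9.33) and 20.4 times at d8 (18.9 to 22.1) as at d0. At d20 only 8 UMIs were counted, in 2 of 38 cells, which is a share of 5.26% (95% Clopper-Pearson interval 0.644 to 17.7). The d0 cells differed by their number: those numbered 1 to 48 had a mean of 8.39 CPM and those numbered 49 and above 34.8 CPM. Their means of log2(CPM + 1) were 2.20 and 4.46, against 4.74 at d1. On that scale d1 thus lay close to the d0 cells numbered 49 and above. The d4 cells also differed by their number, with means of 249.9 and 104.5 CPM, at median depths of 778319 and 322100 UMIs. The order d0, d4, d8 held in either range (329 and 376 CPM at d8), but the d4 cells numbered 49 and above lay below the d3 mean. Neighbours in the order of means overlapped by their interquartile ranges in 10 of 11 pairs, all but d0 with d20.

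The alpha subunit was scarce. *Inha*, on chromosome 1 from 75503652 to 75506941 on the plus strand, had 1099 UMIs in 138 of 670 cells. The share of cells with a UMI ran from 3.92% at d12c to 44.2% at d4 (32.8 to 55.9), and after thinning from 2.13% to 11.1%, at d6p. The mean of 12.1 CPM at d0 came from 1 cell with 804 CPM, without which it was 0.918 CPM. At d8c, d12 and d20 the means of 6.71, 2.20 and 2.59 CPM likewise became 0, 1.21 and 0.049 CPM without the highest cell. In every group before d20, a UMI of each beta subunit was thus found in more cells than one of the alpha subunit. Within d12c, however, 16 of the 30 cells numbered 49 and above had no UMI of either beta subunit.

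Follistatin was low between d3 and d8 and high at both ends of the course. *Fst* lies on chromosome 13 from 115242470 to 115249159 on the minus strand. Its median was 166 CPM at d0, 107 CPM at d1, 53.4 CPM at d2 and 10.1 CPM at d3. The direction from d0 to d1 depended on the summary. Pooled CPM were 1.59 times as high at d1 as at d0 (1.55 to 1.63), and mean levels were 328 and 325 CPM. Without the highest cell of each group these means were 220 CPM at d1 and 301 CPM at d0. From d4 to d8c the medians lay between 0.813 CPM (d5) and 11.0 CPM (d4). At d12 cells ran from 19.7 to 5978 CPM with a median of 766 CPM, and 27 of 67 cells had at least 1000 CPM.

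At d20, where the beta subunits were nearly absent, *Fst* was detected in most cells. Its level there ran from 0 to 1904 CPM with a median of 344 CPM, and 35 of 38 cells had a UMI (92.1%, 78.6 to 98.3). Pooled CPM were 4.05 times lower at d8 than at d0 (3.90 to 4.21), 17.5 times higher at d12 than at d8 (16.9 to 18.1) and 2.91 times lower at d20 than at d12 (2.81 to 3.01). The last difference turned with the cells used: as a mean log2 difference, d20 was 1.53 below d12 over all cells, but 0.43 above it over cells numbered 49 and above (8 at d20, 22 at d12). Mean levels by range were 411 CPM in cells numbered 1 to 48 and 814 CPM in the others at d20, 1439 and 793 CPM at d12, and 221 and 479 CPM at d0. Interquartile ranges overlapped in all 11 pairs of neighbours in the order of means, which began with d12, d20 and d0.

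*Fstl1*, which encodes a secreted glycoprotein abundant in mesenchymal cells, was low in the groups in which the fibroblast markers were low. It spans 37776959 to 37836600 on the plus strand of chromosome 16. Every kept cell of d0 to d12 other than colony-picked d12c cells had a UMI. The median was 706 CPM at d0, 353 CPM at d2 and highest at d8, where cells ran from 107 to 4950 CPM with a median of 1687 CPM. At d12 the median was 1247 CPM, and at d20 it was 43.8 CPM with a highest cell of 251 CPM. Pooled CPM were 2.40 times as high at d8 as at d0 (2.37 to 2.43) and 15.5 times lower at d20 than at d12 (14.4 to 16.6). An annotated pseudogene, *Gm15724*, overlaps *Fstl1* on the other strand. *Fstl3*, which like *Fst* encodes an activin-binding protein, had 4 UMIs in 1 cell of d0 and none in the 11 other groups. There 0 allows shares of up to 3.49% (d6p) to 15% (d8c) of cells.

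The receptors were detected in a minority of cells in most groups. *Acvr2a*, on chromosome 2 from 48669629 to 48758789 on the plus strand, had UMIs in 233 cells (34.8%). Its share was 41.7% at d0, 49.4% at d2, 21.0% at d8 and 53.7% at d12 (41.1 to 66.0), and 13.2% at d20 (4.41 to 28.1). After thinning these shares were 21.1%, 15.9%, 3.39%, 18.2% and 5.56%, so that d0, d2 and d12 lay close together and d8 and d20 lay below them. The mean level was 13.1 CPM at d0, 1.31 CPM at d8, 5.94 CPM at d12 and 3.25 CPM at d20.

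*Acvr2b*, on chromosome 9 from 119311562 to 119342619 on the plus strand, had UMIs in 135 cells (20.1%). Its mean was 0.606 CPM at d0 and 10.8 CPM at d20, and it was 12.1 CPM in d12c cells numbered 49 and above. The shares of cells with a UMI were 6.94% at d0 (2.29 to 15.5) and 18.4% at d20 (7.74 to 34.3), whose intervals overlap. The d20 share came from 7 of 38 cells and was no higher than those of d2 (30.1%) and d12 (19.4%). After thinning the shares were 1.41% at d0, 8.54% at d2, 4.55% at d12 and 16.7% at d20 (6.37 to 32.8). Pooled CPM were 7.63 times as high at d20 as at d12 (5.61 to 10.4), and 1 cell with 133 CPM raised the d20 mean from 7.48 CPM. The type I receptor gene *Acvr1b* (chromosome 15, 101004556 to 101043032, plus strand) had 52 UMIs in 3 cells, 47 of them in 1 cell of d5. The gene *Orc4* overlaps *Acvr2a* and *Prss57* overlaps *Fstl3*, each on the other strand. *Acvr1b* and *Fstl3* were thus near the limit of detection in every group, and the data do not show whether the cells lack these transcripts.

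*Tdgf1* was detected mainly at d20. It lies on chromosome 9 from 110842114 to 110848662 on the minus strand, and a pseudogene, *Tdgf1-ps2*, is similarly named, so its UMIs could belong to either if reads were shared. There were 69 UMIs in 7 of 38 cells at d20 (18.4%, 7.74 to 34.3), with up to 55.7 CPM in a cell. Of the other groups, d1 had 1 UMI and d2 had 4, and the remaining 9 had none. At d12 and d12c, 0 of 67 and 0 of 51 cells had a UMI, which allows shares of up to 4.48% and 5.88%. After thinning, 5 of 36 cells at d20 still had one.

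**Figure D2:**
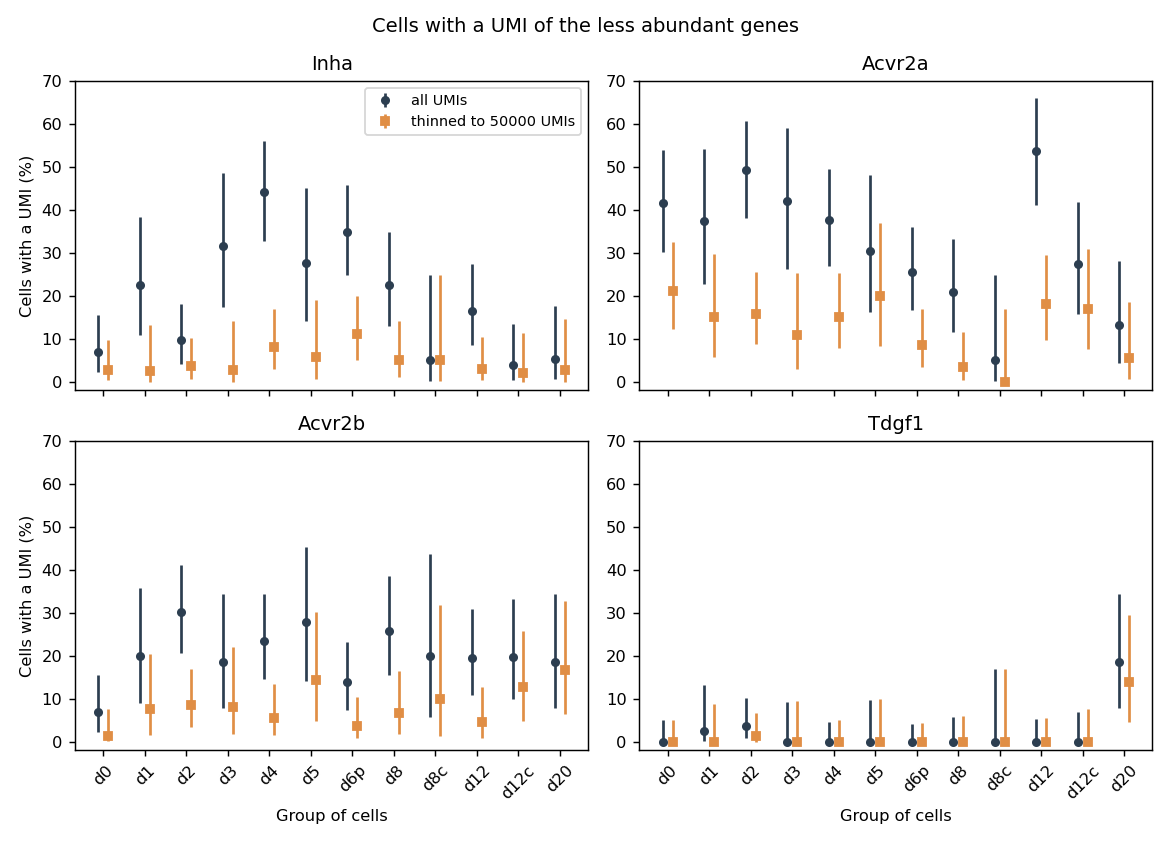
Share of cells with a UMI of *Inha*, *Acvr2a*, *Acvr2b* and *Tdgf1* (vertical axis, percent) by group of cells, for all UMIs (circles) and after thinning each cell to 50000 UMIs (squares), with 95% Clopper-Pearson intervals. The *Tdgf1* share was 18.4% at d20 and at most 3.61% in the other groups, and the *Acvr2a* share was highest at d12 (53.7%).

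Differences between groups were also taken as the difference of mean log2(CPM + 1), and counted where they exceeded 1. A gene entered if its mean was at least 1 in either group, which *Inhba*, *Inhbb*, *Fst*, *Fstl1* and *Acvr2a* did in most comparisons. The other genes were under that level in most, so no count below covers all 10. Between d1 and d0, 1 of 5 genes was beyond 1, *Inhbb* with 1.62, against 23.9% of all genes (19.3% higher and 4.57% lower). The *Inhbb* mean at d1 (4.74) lay close to that of the d0 cells numbered 49 and above (4.46). Between d5 and d0, 1 was higher and 2 were lower, with a background of 35.5% (29.1% higher and 6.38% lower). *Inhbb* was 3.60 higher, which placed it at percentile 99.3 of the differences of all genes, while *Fst* had a difference of -4.33 (percentile 0.172) and *Inhba* one of -1.24.

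By d8 all 5 genes lay beyond 1 from d0, against 30.8% of all genes (17.1% higher and 13.7% lower). *Inhbb* and *Fstl1* were higher, by 4.93 and 1.11, and *Fst*, *Inhba* and *Acvr2a* were lower, with differences of -3.71, -2.44 and -1.33. The step from d8 to d12 was the reverse for the latter: *Fst* was 5.94 higher at d12, *Inhba* 5.26 and *Acvr2a* 1.04, whereas *Inhbb* (-0.13) and *Fstl1* (-0.58) moved by less than 1. Of all genes 28.8% lay beyond 1 in this step (14.2% higher and 14.6% lower), and *Fst* and *Inhba* stood at percentiles 99.9 and 99.8. The standard deviations over cells in this step were 2.39 for *Fst* and 2.25 for *Inhba*, both smaller than the differences. For *Acvr2a* the standard deviation in this step was 1.46 and larger than the difference. Some differences in other comparisons, of which examples follow, were also smaller in size than the spread over cells. At d8 against d0 the spread was 1.82 beside -1.33 for *Acvr2a* and 1.12 beside 1.11 for *Fstl1*. For *Inhbb* at d1 against d0 it was 2.12 beside 1.62, and for *Fst* at d12 against d0 2.47 beside 2.23. For *Fst* at d20 against d12 it was 2.62 beside -1.53, and for *Inhba* at d8c against d8 2.69 beside -1.44. Both d8 comparisons were added after the levels had been seen.

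Against d0, the d12 cells were higher in *Inhbb* (4.80), *Inhba* (2.82) and *Fst* (2.23) and in none lower, with 36.1% of all genes beyond 1 (19.8% higher and 16.3% lower). For *Fst* this depended on the cells used. Its means of log2(CPM + 1) were 9.33 at d12 and 5.94 at d0 in cells numbered 1 to 48. In cells numbered 49 and above they were 8.52 and 8.16, which lie within 1 of each other. Against d12, the d20 cells were lower in *Inhba* (-10.34), *Inhbb* (-7.74), *Fstl1* (-5.33) and *Fst* (-1.53), with 51.4% of all genes beyond 1 (20.5% higher and 30.9% lower). *Inhba* was at percentile 0.021 of all differences. Against d0, d20 was lower in *Inhba* (-7.52), *Fstl1* (-4.80), *Inhbb* (-2.95) and *Acvr2a* (-1.18), while *Fst* was 0.70 higher and within 1. The share of all genes beyond 1 was 40.1% (15% higher and 25.1% lower). The comparisons with d0 share the d0 cells, and those with d12 the d12 cells. The median difference of all genes entered was between -0.34 and 0.52 in these and the later comparisons.

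Cells picked from colonies form 2 groups, on day 8 and day 12. At d8c, *Inhba*, *Fst* and *Inhbb* were lower than at d8, with differences of -1.44, -1.33 and -1.21, and 20.6% of all genes lay beyond 1 (4.59% higher and 16% lower). These differences depended on the scale. With a pseudocount of 10, *Inhbb* was the one gene beyond 1 (-1.11), with -0.85 for *Inhba* and -0.78 for *Fst*. On the log2 of mean CPM *Fst* was the one of the 3 beyond 1 (-2.74), with -0.24 for *Inhba* and -0.80 for *Inhbb*. Summed XEN markers had medians of 162 CPM at d8c and 49.5 CPM at d8, and fibroblast markers 6063 and 14800 CPM. Their part in this difference was not tested. On day 12 the 21 d12c cells numbered 1 to 24 had mean levels of 1805 CPM of *Inhba*, 315 CPM of *Inhbb*, 394 CPM of *Fst* and 818 CPM of *Fstl1*. The 30 cells numbered 49 and above had 1.95, 7.82, 172 and 26.0 CPM. In the latter 6 cells had an *Inhba* UMI, 8 an *Inhbb* UMI, 15 an *Fstl1* UMI and 25 an *Fst* UMI.

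Most of those 30 cells thus had *Fst*, while 16 had no UMI of either beta subunit, 6 had *Inhba* alone and 8 *Inhbb* alone; at d20, 34 of 38 cells had neither. Against d12, 4 of the 6 genes that entered were lower, with differences of -9.93 for *Inhba*, -7.93 for *Fstl1*, -6.82 for *Inhbb* and -3.50 for *Fst*, and 49.6% of all genes lay beyond 1 (17.3% higher and 32.2% lower). From these cells to d20, *Fstl1* was 2.60 and *Fst* 1.98 higher, with 25.2% of all genes beyond 1 (14.9% higher and 10.3% lower). Pooled CPM of *Fst* were 2.42 times as high at d20 (2.27 to 2.57) and those of *Fstl1* 1.64 times (1.46 to 1.84).

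**Figure D3:**
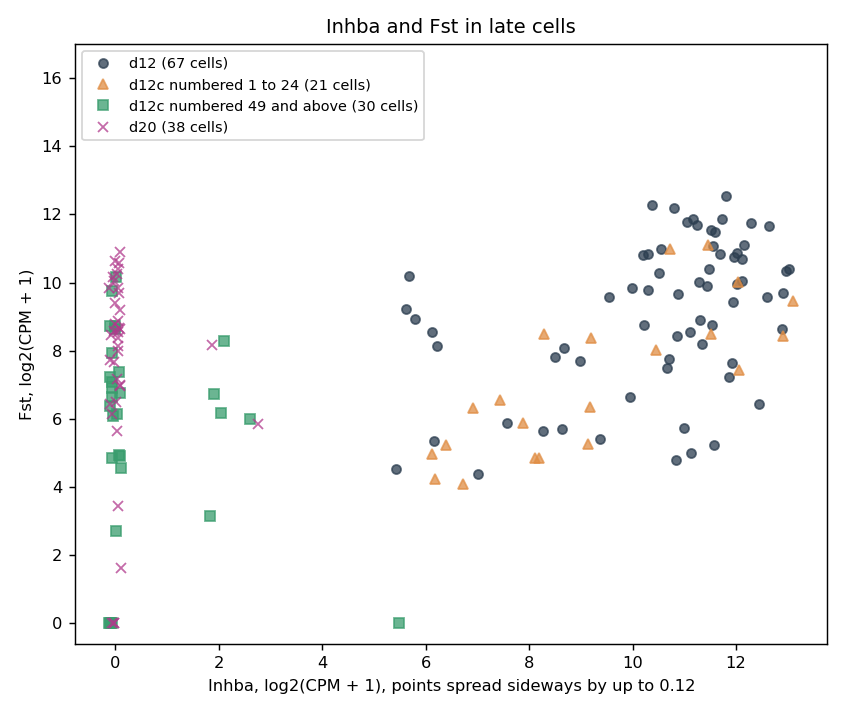
*Inhba* (horizontal axis) against *Fst* (vertical axis) as log2(CPM + 1) in single cells of d12 (67), d12c numbered 1 to 24 (21), d12c numbered 49 and above (30) and d20 (38). Points were spread sideways by up to 0.12. All cells of the first pair of groups had both transcripts, and 33 of 38 d20 cells had *Fst* and no *Inhba*.

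Co-detection showed the same in counts of cells. At d12 all 67 cells had UMIs of both *Inhba* and *Fst*. At d20, 33 of 38 cells had *Fst* alone, 2 had both and 3 neither. In d12c cells numbered 49 and above, 20 had *Fst* alone, 5 both, 1 *Inhba* alone and 4 neither. Median depths were 195546 and 276252 UMIs in these 2 groups. After thinning to 50000 UMIs, 32 of 36 cells at d20 had an *Fst* UMI (88.9%), and none an *Inhba* UMI.

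Among the d12 cells and the d12c cells numbered 1 to 24, a few had a higher summed level of XEN than of fibroblast markers, namely 7 of 88 cells, a set chosen after the values had been seen. Each of the 7 had an *Inhba* UMI, with 48.5 to 605 CPM and a median of 69.9 CPM, against 2173 CPM in the 81 other cells. Their *Inhba* median was 3.22% of that of the other cells, that of *Inhbb* 12.1%, of *Fstl1* 8.11% and of *Fst* 69.4%. Their summed fibroblast markers stood at 7.14%, a value that depends on the rule by which the cells were chosen. The cells with higher XEN markers thus had lower medians of all 4 genes. These values all pool 3 d12 cells with 4 d12c cells. *Fst* medians were 597 CPM and 787 CPM in the other cells at d12, but 33.5 and 172 CPM in d12c cells numbered 1 to 24. *Inhba* medians were 52.7 CPM and 2264 CPM in the other cells at d12, and 79.4 and 619 CPM in d12c cells numbered 1 to 24. The fibroblast markers of the 7 cells ran from 602 to 1050.5 CPM. This was above those of the 27 d12c cells numbered 49 and above with higher XEN markers (0 to 87.8 CPM). Of those 27 cells, 5 had an *Inhba* UMI, with at most 5.25 CPM. The part of other cells' RNA in these values was not tested.

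Within a group, the genes varied together only weakly. Across the cells of a group, the Spearman correlation of *Inhba* with *Fst* ran from -0.15 (d20) to 0.40 (d12), with a median of 0.20 over the 12 groups of 20 to 86 cells. At d20 only 2 of 38 cells had an *Inhba* UMI, so that value rests on ties and does not describe joint variation. The next lowest was 0.05 at d5. For *Inhba* with *Inhbb* the median was 0.14 and for *Inhba* with *Fstl1* 0.15, and the highest values, 0.77 and 0.79, were those of d12c, which holds both kinds of cells. In d12c cells numbered 1 to 24 alone these correlations were 0.36 and 0.53, and 0.79 for *Inhba* with *Fst*. The correlation with a cell's depth ran from -0.11 to 0.32 for *Inhba*, from -0.18 to 0.40 for *Fst*, from -0.35 to 0.48 for *Inhbb* and from -0.50 to 0.39 for *Fstl1*. In d12c it was 0.48 for *Inhbb* and 0.39 for *Fstl1*. Cells share library and culture, and these values are descriptions.

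Of the wider activin and TGF-beta pathway, 40 further genes were listed. They comprise other ligands, receptors, Smads and their partners, modulators and genes that respond to the pathway. Between d12 and d0, 25 entered, of which 8 were higher and 6 lower, beside 19.8% higher and 16.3% lower among all genes. *Tgfb2*, a TGF-beta ligand, was 4.11 higher, *Smad3* 4.06, the type II receptor gene *Tgfbr2* 3.24 and its coreceptor gene *Tgfbr3* 2.80, while *Ctgf*, a target of TGF-beta and YAP, had a difference of -5.97. At d8 against d0 (5 of 24 higher and 6 lower, against 17.1% and 13.7% of all genes) *Tgfb2* was 5.17 and *Pcsk6*, a proprotein convertase, 4.08 higher. Among the lower genes of that comparison, *Ctgf* had a difference of -5.17.

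From d8 to d12, where *Inhba* and *Fst* were higher, 7 of 24 genes were higher and 4 lower, against 14.2% and 14.6% of all genes. The higher ones included *Tgif1* (3.85), *Smad3* (3.02), *Smad7* (2.34), *Pmepa1* (2.20) and *Furin* (1.92), which encodes a convertase that matures activin and TGF-beta precursors. *Smad7*, *Pmepa1* and *Tgif1* encode inhibitors of Smad signalling. *Ski*, another one, was lower (-1.66), and so was the decoy receptor gene *Bambi* (-1.67). From d0 to d1, when *Ctgf* differed by -4.36 and *Skil*, which encodes a Smad repressor, by -1.90, 2 of 23 were higher and 3 lower, a total near the 23.9% of all genes that lay beyond 1 (19.3% higher and 4.57% lower). From d0 to d5, 7 of 24 were higher and 8 lower, beside 29.1% higher and 6.38% lower among all genes.

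Between d12 and d20, 16 of 24 pathway genes were lower and 3 were higher at d20, against 30.9% lower and 20.5% higher among all genes. The lower ones included *Tgfbr2* (-4.78), *Smad3* (-4.61), *Pmepa1* (-4.31), *Tgfbr3* (-3.85), *Tgfb3* (-3.80), *Furin* (-3.62) and *Pcsk6* (-3.34). The higher ones included *Igsf1* (5.63), a membrane protein gene once proposed as an inhibin coreceptor, and *Bambi* (1.46), a decoy receptor gene. The median over these 24 genes was -1.27, beside -0.20 over all genes. Between d0 and d20, 3 of 23 were higher and 11 lower, against 15% and 25.1% of all genes, and *Igsf1* (5.77) was again among the higher. In d12c cells numbered 49 and above against d12, 4 of 25 were higher and 17 lower, against 17.3% and 32.2% of all genes. At d20 against those cells 2 of 15 were higher and 5 lower, against 14.9% and 10.3%, and at d8c against d8 1 of 23 was higher and 9 lower, against 4.59% and 16%. *Gdf1*, *Inhbc*, *Inhbe* and *Foxh1* had no UMI in any kept cell and *Nodal* had 18 in all.

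**Figure D4:**
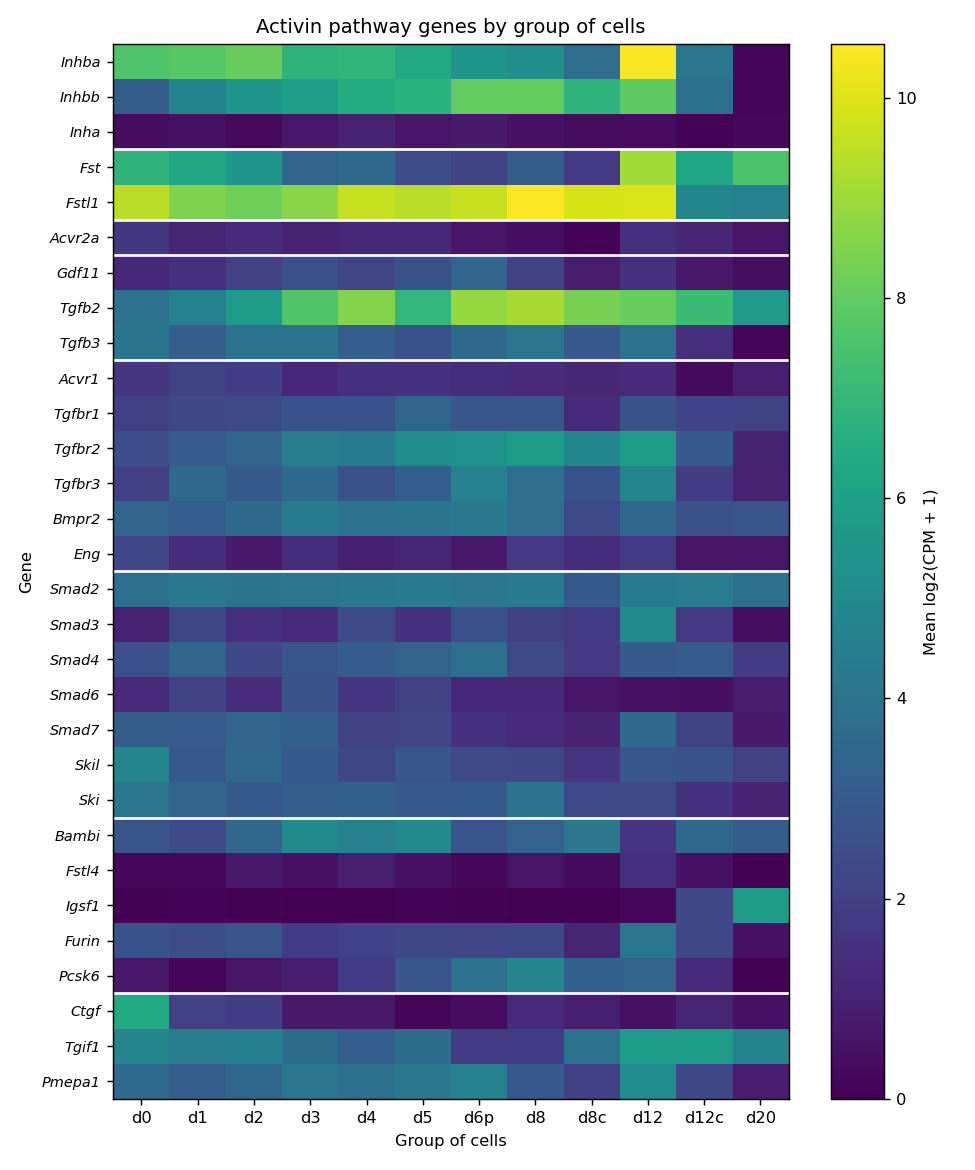
Mean log2(CPM + 1) (colour) of 30 of the 32 genes of the family and pathway whose mean was at least 1 in some group, by gene (rows, split by role) and group of cells (columns). *Inhba* was highest at d12 (10.47), *Igsf1* at d20, and *Smad3*, *Tgfbr2* and *Pmepa1* were low at d20.

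For the 4 genes of widest range, the genes most like them over the 12 group means were sought among 9165 genes by Pearson's r, as a description. For *Inhba* they were *Ppp1r18*, *Fhl3*, *S1pr2*, *Egfr* and *Rbm26* (r from 0.94 to 0.96), and for *Inhbb* *Aldh7a1*, *Pitpnc1*, *Tgfbr2*, *Ech1* and *Selenow* (0.97 to 0.98). For *Fst* they were *Pdlim1*, *Slc7a1*, *Fam129b*, *Pdpn* and *Klf5* (0.90 to 0.94), and for *Fstl1* *Col1a1*, *P3h4*, *Efemp2*, *Col1a2* and *Eva1b* (0.95 to 0.96). *Fstl1* thus ran closest to collagen genes that are themselves fibroblast markers, while no collagen stood among the 5 genes nearest to *Inhba*, *Inhbb* or *Fst*. Among the 4 genes themselves, r was 0.81 for *Inhbb* with *Fstl1*, 0.60 for *Inhba* with *Fstl1*, 0.52 for *Inhba* with *Inhbb*, 0.20 for *Inhba* with *Fst*, -0.44 for *Fst* with *Fstl1* and -0.52 for *Inhbb* with *Fst*.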

How the data were processed

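As deposited, the table holds UMI counts per gene and cell. The authors assigned trimmed reads to cells by barcode, used the mm9 transcriptome for alignment and collapsed duplicates with the UMIs. The aligner and the counting with or without strand are not given in the sources used here. Cell names do not tell which of the 10 samples a cell is from, so the table was treated as 1 sample and no p-value was computed. Cells were not tested for doublets, since they were picked by hand. Of the gene rows, 4 with a repeated name were left out, as were 92 spike-in rows, and the remaining counts were scaled to CPM per cell. Kept cells had 4000 detected genes or more, and their depth ran from 17636 to 6005401 UMIs, and large counts had been rounded. Intervals at 95% were exact Poisson for summed UMIs and exact Clopper-Pearson for shares, and a share of 0 was read as allowing 3 cells. For thinned shares, UMIs were drawn at random to 50000 per cell, which left out 23 kept cells. A difference is that of mean log2(CPM + 1), counted beyond 1 where the mean of the gene reached 1 in either group.

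The text names the 10 members. For each of the 4 members of widest range it names the 5 genes most like it, among genes whose mean reached 2 in a group. Of the 40 pathway genes it names some of those with large differences. Some listed genes enter the counts but are not reported here by name. Members, gene lists and markers were chosen with earlier results of these data known. The comparisons of d8 with d0, d12 with d8, d8c with d8, d12c numbered 49 and above with d12, and d20 with those cells were added after seeing the data. Positions come from GENCODE M1. The calculation of differences was tested on simulated data. Python 3.11.15, numpy 2.4.6, pandas 2.3.3, scipy 1.17.1 and matplotlib 3.10.9 were used, with TMM factors from edgeR 4.0.16 and median-of-ratios factors from DESeq2 1.42.0 in R 4.3.3 as alternatives.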

Additional observations from a re-analysis of the deposited data

How the results depend on the processing

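The counts of genes beyond 1 were recomputed with other filters on cells, another pseudocount, other summaries, thinning, other scalings, without the highest cell and within number ranges. Of 250 such counts, 229 stayed within 1.5 times the reported count. With at least 6000 detected genes, 2 genes were higher at d20 than at d0 and 2 than at d12, in place of 0, and 1 was lower at d20 than in d12c cells numbered 49 and above, in place of 0. With a pseudocount of 10, 1 gene was lower at d8c than at d8, in place of 3. With the log2 of the mean CPM, 2 genes were lower at d1 and 2 at d12 than at d0 (in place of 0), 2 were higher at d5 than at d0 (in place of 1), 2 were higher at d20 than at d0 and 2 than at d12 (in place of 0). In the same setting 1 gene was higher and 1 lower at d8c than at d8 (in place of 0 and 3), 1 was higher in d12c cells numbered 49 and above than at d12 (in place of 0), and 4 were higher and 3 lower at d20 than in those cells (in place of 2 and 0). With medians, 1 gene was lower at d5 than at d0 (in place of 2) and 1 higher at d20 than at d0 (in place of 0). In cells numbered 1 to 48, 1 gene was higher at d20 than at d0. In cells numbered 49 and above, 1 was higher at d20 than at d0 and 1 than at d12 (in place of 0), 1 was lower at d20 than in d12c cells of that range (in place of 0), 1 was higher at d8 than at d0 (in place of 2), and *Fst* was 0.43 higher at d20 than at d12 in place of -1.53. The cause was not tested.

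No paired analysis was possible because the cell names carry no batch. In the d12 comparison with d0 the median difference of all genes was -0.01, and it was 0.11 with TMM and 0.10 with median-of-ratios factors. In the d20 comparison with d12 it was -0.20, -0.49 and -0.42. Cell number ranges may be libraries, and d8c, with 20 cells, and d20 numbered 49 and above, with 8, are small. Shallow cells at d20 limit what can be said of *Acvr2a*, *Acvr2b*, *Inha* and *Tdgf1*, whose levels there rest on 14, 95, 13 and 69 UMIs.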
